A study of Homo sapiens with 6 samples.

Results

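The genes described here encode zinc finger proteins and lie on human chromosomes other than 19. They were chosen by symbol (ZNF, ZFP, ZSCAN or ZKSCAN followed by a number) among array features with a single gene symbol, on chromosomes 1 to 18 and 20 to 22, with 1 such gene left out. Each gene was represented by its brightest feature. This gave 267 genes of 18417 measured, of which 8 are annotated as pseudogenes. RNA came from 2 related human prostate epithelial lines, measured on 6 single-colour arrays. CAsE-PE is the malignantly transformed line obtained by growing RWPE-1 continuously in 5 µM sodium arsenite, sampled here after 30, 33.5 and 35 weeks of exposure (3 arrays). RWPE-1 is a line of normal adult prostate epithelium immortalised with human papillomavirus, sampled untreated at passages 18, 38 and 42 (3 arrays). Both lines therefore carry the viral immortalisation, and both grew in serum-free keratinocyte medium with pituitary extract and epidermal growth factor. The labels describe a single transformed line, do not give its passage and identify no untreated cells of matched time in culture. Whether the arrays of a group came from separate cultures is not stated, and a p-value here reflects only how far these arrays differ, which may be technical.

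Most of these genes belong to the C2H2 class, in which a pair of cysteines and a pair of histidines hold a zinc ion in each finger and tandem fingers read a stretch of DNA. Many members carry a KRAB domain, which recruits the corepressor TRIM28 and through it the histone H3K9 methyltransferase SETDB1 and heterochromatin proteins. Others carry a SCAN domain, which joins such proteins into pairs, and some members act instead in corepressor complexes, at broadly used promoters, or on RNA and ribosomes. Although the largest clusters of the family lie on chromosome 19, smaller clusters occur on most other chromosomes.

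The arrays had median intensities between 91.7 and 97.2, and their log2 values correlated across genes at 0.985 to 0.995 within groups and 0.956 to 0.969 between groups. Levels are given as log2(intensity + 1), and a difference is the CAsE-PE mean less the RWPE-1 mean on that scale, with the standard error (SE) of a limma fit over all 18417 genes. A gene is said to rise or fall where its Benjamini-Hochberg adjusted p in this fit was under 0.05. The epithelial keratin genes KRT5 (11.93 in CAsE-PE and 12.05 in RWPE-1) and KRT8 (11.20 in CAsE-PE and 11.12 in RWPE-1) were bright in both lines. Of 5 basal markers KRT14, KRT15 and LAMB3 fell. Of 3 luminal markers 0 rose and 0 fell. Among these KRT8 and KRT18 (10.50 in CAsE-PE and 10.46 in RWPE-1) were bright, and KLK3 was dim (5.91 in CAsE-PE and 6.15 in RWPE-1). The 14 fibroblast, leukocyte and endothelial markers ranged from 3.61 to 7.85 in CAsE-PE and from 3.62 to 7.75 in RWPE-1, against a median level of 7.13 over all genes, and of these CD14 fell and 0 rose. No detection calls accompany the values, so dim genes cannot be told from background. In RNA from whole cultures, fewer cells expressing a gene and less RNA per cell cannot be told apart.

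The starts of 4 genes with large differences are shown first, as the 250 bases before the transcription start in RefSeq (GRCh38.p14), with CG pairs, the sites of DNA methylation, in capitals. ZNF483 (chr9:111524929-111525178, plus strand) and ZNF24 (chr18:35344421-35344670, minus strand) had the largest rises. ZNF300 (chr5:150904981-150905230, minus strand) and ZNF454 (chr5:178940948-178941197, plus strand) had the first and the third largest falls.
ZNF483: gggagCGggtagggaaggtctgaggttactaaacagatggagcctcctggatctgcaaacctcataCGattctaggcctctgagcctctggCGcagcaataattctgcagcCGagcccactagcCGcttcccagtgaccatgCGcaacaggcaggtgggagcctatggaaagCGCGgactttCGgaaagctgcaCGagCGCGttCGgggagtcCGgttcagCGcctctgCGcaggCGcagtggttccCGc
ZNF24: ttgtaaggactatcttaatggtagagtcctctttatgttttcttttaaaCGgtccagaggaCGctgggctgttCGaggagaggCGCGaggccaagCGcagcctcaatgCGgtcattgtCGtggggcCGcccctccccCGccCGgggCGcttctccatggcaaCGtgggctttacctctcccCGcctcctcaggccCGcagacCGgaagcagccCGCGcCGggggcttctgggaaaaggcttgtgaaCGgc
ZNF300: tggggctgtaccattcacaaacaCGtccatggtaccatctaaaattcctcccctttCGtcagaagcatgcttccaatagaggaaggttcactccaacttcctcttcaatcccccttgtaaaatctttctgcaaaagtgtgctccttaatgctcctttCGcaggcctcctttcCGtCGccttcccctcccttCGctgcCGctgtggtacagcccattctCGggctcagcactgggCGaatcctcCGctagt
ZNF454: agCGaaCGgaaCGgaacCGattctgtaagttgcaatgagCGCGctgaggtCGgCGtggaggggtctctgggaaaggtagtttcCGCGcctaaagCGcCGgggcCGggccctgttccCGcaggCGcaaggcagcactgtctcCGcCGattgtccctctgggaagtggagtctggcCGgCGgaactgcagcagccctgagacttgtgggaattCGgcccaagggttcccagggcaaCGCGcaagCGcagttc
These stretches held 18 CG pairs in ZNF483, 20 in ZNF24, 10 in ZNF300 and 23 in ZNF454. A start sequence was at hand for 212 of the 267 genes. The median number of CG pairs was 19 in the 33 rising genes with a sequence, 20 in the 21 falling genes, 19 in the 158 that did not pass, and 18 over 14236 genes of the array. Rising and falling genes therefore had similar medians in this window, which was not tested. DNA methylation was not measured here.

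Both directions of change were common among the 267 genes. The lines differed by a rise in 40 and a fall in 29, and the other 198 did not pass. Over all genes 9.04% rose and 8.71% fell (17.7% in all), so the members rose in 15.0% and fell in 10.9%. The CAsE-PE and RWPE-1 arrays did not overlap for 117 members, 43.8%, where 38.9% of all genes were so separated. The median difference was 0.07 over the members and −0.06 over all genes. The 2 rises of at least 2-fold were in ZNF483 and ZNF24, and 5 members fell by at least 2-fold, where 1.55% of all genes rose and 2.06% fell by that much. The counts leaned on single arrays: without the passage 38 array 26 members rose and 15 fell, while over all genes 5.15% rose and 5.10% fell. Of the 40 rises 22 passed in each of the 6 fits that left out 1 array, as did 15 of the 29 falls.

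**Figure D1:**
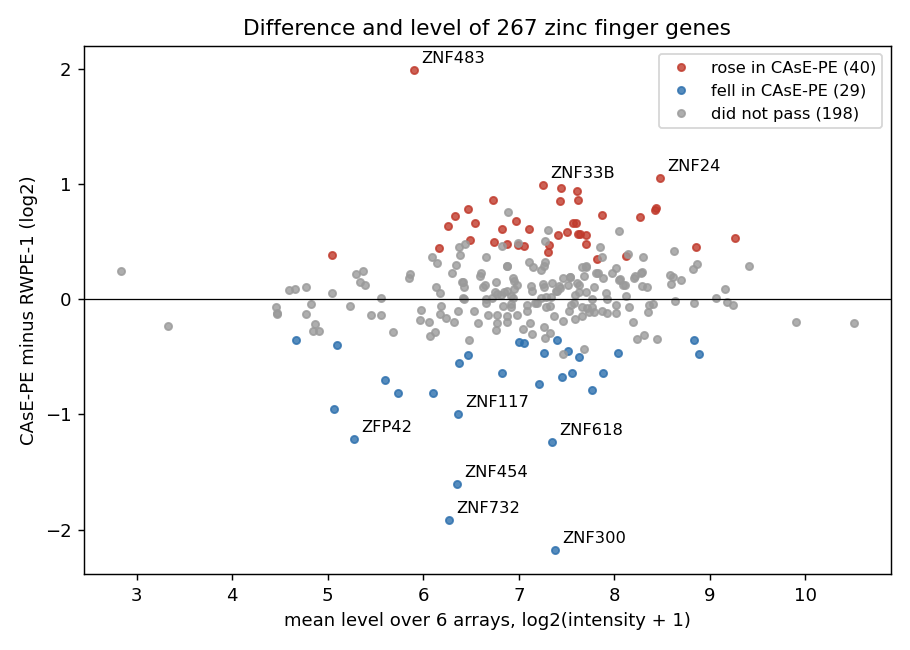
Difference between the lines (CAsE-PE minus RWPE-1, log2) against the mean level over the 6 arrays for each of the 267 genes, coloured by whether the gene rose (40), fell (29) or did not pass (198). The falls reach −2.18 in ZNF300, whereas past ZNF483 at 1.99 the rises end at 1.05 in ZNF24.

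The counterpart on chromosome 19, chosen by the same symbol rule, was distributed otherwise: of 244 genes, 7 rose and 49 fell, with a median difference of −0.06. Outside chromosome 19 the share of rises was higher (15.0% against 2.87%) and the share of falls lower (10.9% against 20.1%). Falls of at least 2-fold numbered 5 of 267 outside chromosome 19 and 27 of 244 on it, where 2.06% of all genes fell by that much. These are counts over genes of the same arrays, and their difference was not tested.

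Among the rises, ZNF483 stood first. This gene, on chromosome 9, encodes a protein with a SCAN domain and a KRAB domain. Its level was 6.80, 6.82 and 7.09 in CAsE-PE at 30, 33.5 and 35 weeks, against 5.17, 5.03 and 4.53 in RWPE-1 at passages 18, 38 and 42. All CAsE-PE arrays lay above all RWPE-1 arrays, by a difference of 1.99 (SE 0.17, adjusted p = 0.000101) or 3.98-fold. Over all arrays ZNF483 belonged to the dimmest 33.3% of genes, so its fold is understated by the added 1. ZNF24, on chromosome 18, encodes a SCAN domain protein known as a repressor of the vascular growth factor gene VEGFA. It was bright, at 9.20, 8.82 and 8.99 in CAsE-PE, against 8.12, 7.87 and 7.87 in RWPE-1. The groups were again apart, by 1.05 (SE 0.13, adjusted p = 0.000706) or 2.07-fold. On each array the up to 24 nearest non-zinc-finger genes gave a median deviation from their own means over all arrays. The neighbours' shift is the CAsE-PE mean of these medians less the RWPE-1 mean. For ZNF24 this shift was 0.22, and 0.47 when the dimmest 33.3% of genes were left out before the neighbours were taken. With these medians taken off each array, ZNF24 differed by 0.84 (adjusted p = 0.00515) and 0.59 (adjusted p = 0.00981).

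The next rises were between 0.73 and 0.99. ZNF33B, a KRAB gene on chromosome 10, was at 7.61, 7.65 and 7.99 in CAsE-PE, against 6.99, 6.62 and 6.68 in RWPE-1 (difference 0.99, SE 0.14, adjusted p = 0.00166). ZNF398, whose protein can bind the oestrogen receptor, was at 8.11, 7.83 and 7.85 in CAsE-PE, against 7.01, 6.94 and 6.94 in RWPE-1 (difference 0.97, SE 0.11, adjusted p = 0.000481). The RWPE-1 arrays differed little among themselves for ZNF398, and in both genes the groups did not overlap. ZNF277 rose by 0.94 (SE 0.12), the SCAN domain gene ZKSCAN2 by 0.86 (SE 0.10) and the SCAN domain gene ZSCAN29 by 0.86 (SE 0.10). The pseudogene ZNF767P rose by 0.85 (SE 0.12), the repressor gene ZNF800 by 0.79 (SE 0.11), ZNF248 by 0.78 (SE 0.13), ZNF770 by 0.77 (SE 0.11) and ZNF484 by 0.73 (SE 0.12). The brighter neighbours of ZNF277 and ZNF800 on chromosome 7 had median shifts of 0.74 and 0.59. With those shifts taken off, ZNF277 differed by 0.20 (adjusted p = 0.393) and ZNF800 by 0.21 (adjusted p = 0.234), and neither passed. A second, dimmer feature of ZNF277 differed by 0.34.

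Among the falls, ZNF300 stood first. It is a KRAB gene on chromosome 5, at 6.65, 5.97 and 6.23 in CAsE-PE, against 8.43, 8.52 and 8.44 in RWPE-1. The RWPE-1 arrays were nearly level and the CAsE-PE arrays all well below them, by −2.18 (SE 0.16, adjusted p = 4.35e-05) or 4.53-fold. ZNF732, on chromosome 4, was at 5.24, 5.19 and 5.51 in CAsE-PE, against 7.40, 7.22 and 7.08 in RWPE-1 (difference −1.92, SE 0.13, adjusted p = 2.66e-05). ZNF454, on chromosome 5, was at 5.68, 5.40 and 5.58 in CAsE-PE, against 7.17, 7.18 and 7.12 in RWPE-1 (difference −1.60, SE 0.11, adjusted p = 2.59e-05). In these 2 genes also the groups were apart on all arrays, and taking off the neighbours' shift left −1.87 for ZNF732 and −1.64 for ZNF454.

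ZNF618, whose protein binds chromatin together with the ubiquitin ligase UHRF2, was at 6.41, 7.06 and 6.73 in CAsE-PE, against 7.91, 8.08 and 7.94 in RWPE-1. It fell by 1.24 on the log2 scale (SE 0.16, adjusted p = 0.000895), with the CAsE-PE arrays more spread than the RWPE-1 arrays, and a second feature of the gene differed by −1.15. ZFP42, the pluripotency marker also called REX1, was at 4.50, 4.73 and 4.77 in CAsE-PE, against 5.90, 6.09 and 5.66 in RWPE-1 (difference −1.21, SE 0.13, adjusted p = 0.000436). Both groups were dim for ZFP42, which lay among the dimmest 33.3% of genes. The other large falls were in ZNF117 (−0.99, SE 0.16), ZNF572 (−0.95, SE 0.11), ZNF662 (−0.82, SE 0.12), ZNF502 (−0.81, SE 0.15), ZNF532 (−0.79, SE 0.10), ZNF827 (−0.74, SE 0.13) and ZNF438 (−0.70, SE 0.15). Of these, ZNF572, ZNF662, ZNF502 and ZNF438 also lay among the dimmest 33.3% of genes. The brighter neighbours of ZNF438 on chromosome 10 had a shift of −0.59, and without that shift ZNF438 differed by −0.11 (adjusted p = 0.675). All 24 of the largest rises and falls passed in each of the 6 fits that left out 1 array. With the neighbours' shift taken off 23 passed, and 21 with that of the brighter neighbours.

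**Figure D2:**
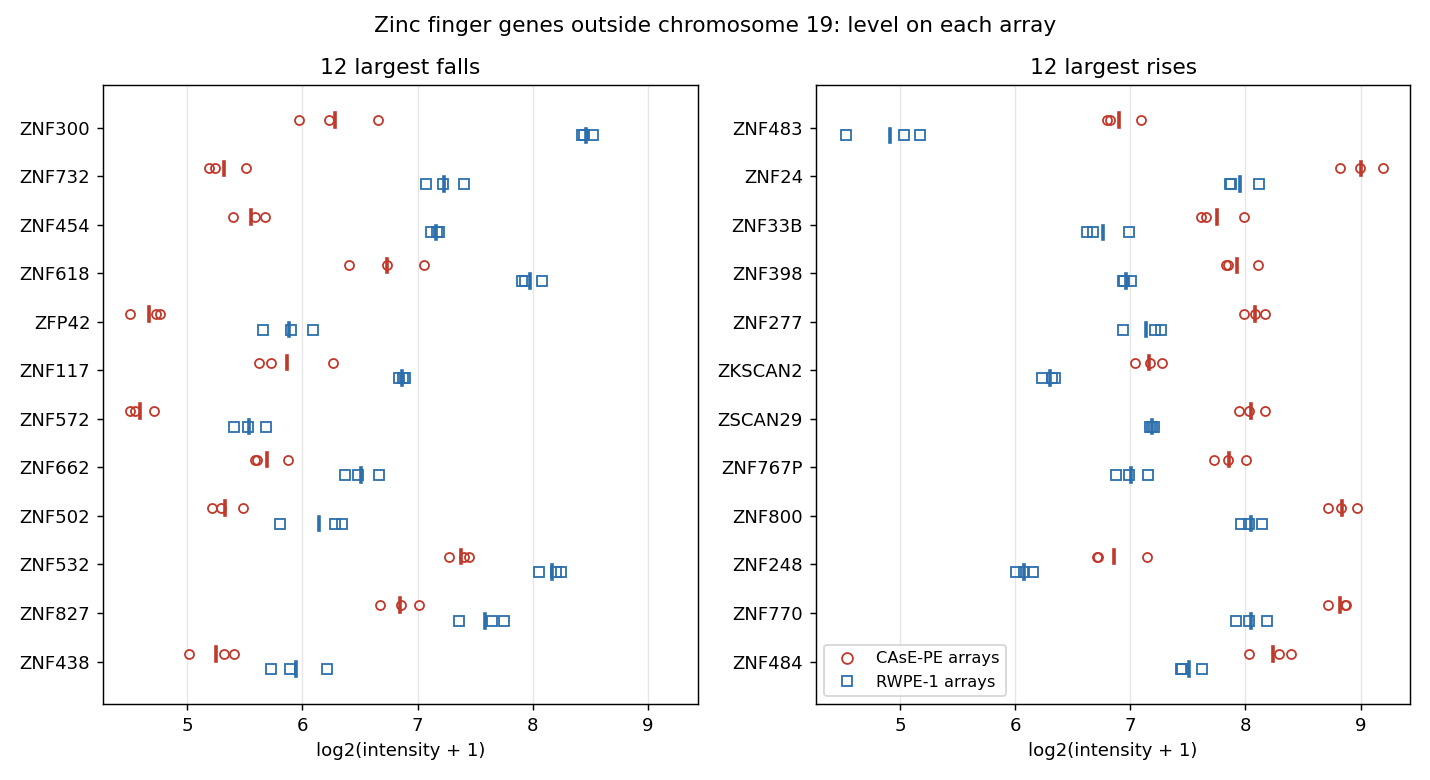
Level of the 12 largest falls (left) and the 12 largest rises (right) on each array, as log2(intensity + 1), with circles for CAsE-PE arrays, squares for RWPE-1 arrays and a bar for each group's mean. The genes were chosen among called members whose groups do not overlap, so the separation follows from the choice. They run from ZNF300 at 5.97 to 6.65 in CAsE-PE against 8.43 to 8.52 in RWPE-1 to ZNF484 at 8.04 to 8.39 in CAsE-PE against 7.44 to 7.62 in RWPE-1.

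Genes of the SCAN class, whose proteins pair with one another through that domain, held more rises than falls. The array measured 37 of them, with 9 rises, 1 fall and 27 below the threshold, which is 24.3% rising where 9.04% of all genes did, and their median difference was 0.12. The count of rises was 5 without the passage 18 array, 5 without the passage 38 array and 4 with the shift of the brighter neighbours taken off. Beside ZNF483, ZNF24, ZKSCAN2 and ZSCAN29, the rises included ZNF397 (0.66, SE 0.15) and ZNF174 (0.48, SE 0.14). Neither passed once the 35-week array was left out (adjusted p = 0.0619 for ZNF397 and 0.164 for ZNF174), and 5 of the 6 fits that left out 1 array lost that of ZNF174. The single fall was in ZKSCAN7, at 6.06, 6.04 and 6.19 in CAsE-PE, against 6.62, 6.73 and 6.60 in RWPE-1 (difference −0.55, SE 0.10, adjusted p = 0.00513). ZNF165, a SCAN gene normally expressed in testis, was at 8.22, 7.46 and 7.16 in CAsE-PE, against 6.80, 7.14 and 7.08 in RWPE-1, and its difference of 0.61 (SE 0.24) did not pass. The 30-week value was the highest of the 6 and the 35-week value the lowest of CAsE-PE, just above RWPE-1.

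Partners of corepressor and chromatin complexes were few, with 13 measured. Of these 5 fell (38.5%, where 8.71% of all genes did), 1 rose (7.69%, where 9.04% did) and 7 were below the threshold, and the median difference was −0.29. With the shift of all neighbours or of the brighter ones taken off, 3 fell and 0 rose, as ZNF592, ZNF703 and ZNF652 no longer passed. Without the 35-week or the passage 38 array 3 fell and 0 rose, and without the passage 18 or the passage 42 array 3 fell and 1 rose. The falls were in ZNF618 and in ZNF532 and ZNF592, whose proteins form a transcription-regulating complex with ZMYND8, in ZNF827, which brings the NuRD remodelling complex to telomeres, and in the corepressor gene ZNF703. ZNF532 was at 7.27, 7.45 and 7.41 in CAsE-PE, against 8.24, 8.20 and 8.05 in RWPE-1 (adjusted p = 0.00108), with a wide gap between the lines. The differences were smaller in ZNF592 (−0.36, SE 0.10) and ZNF703 (−0.35, SE 0.10), and each of those 2 calls was kept in 1 of the 6 fits without 1 array (up to 0.109 and 0.141 in adjusted p, both when the 35-week array was left out). The third protein of the ZMYND8 complex, ZNF687, differed by 0.17 (SE 0.13) and did not pass. ZNF652, a partner of the corepressor CBFA2T3, rose by 0.55 (SE 0.13, adjusted p = 0.0159), with 8.02, 7.86 and 8.06 in CAsE-PE and 7.64, 7.41 and 7.23 in RWPE-1, and its adjusted p was 0.0650 without the 35-week array.

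The other role groups were small, and their counts are set against 17.7% of all genes passing. Of 9 developmental regulators 1 fell (11.1%) and 0 rose: ZNF365, a gene of genome stability, was at 4.94, 4.95 and 4.81 in CAsE-PE and 5.33, 5.34 and 5.21 in RWPE-1 (difference −0.39, SE 0.10, adjusted p = 0.0240), and 3 of the 6 fits without 1 array kept the call, which was lost without passage 18, passage 38 (adjusted p = 0.100) or 35 weeks. With the shift of all neighbours taken off 0 of these regulators fell, and with that of the brighter neighbours 4 did, ZNF365, ZNF423, ZNF521 and ZNF462 (adjusted p = 0.0133, 0.0169, 0.0268 and 0.0486). With no shift taken off, ZNF423, ZNF521 and ZNF462 differed by −0.14, −0.28 and −0.20 and did not pass. Their brighter neighbours had shifts of 0.36, 0.16 and 0.29, so these calls came with taking those shifts off. ZNF365, ZNF423 and ZNF521 lay among the dimmest 33.3% of genes, which the brighter neighbours exclude. Over all genes 1865 fell in that fit, against 1604 with no shift taken off. Of 5 activators of broadly used promoters 0 rose and 0 fell, with differences from −0.05 in ZNF384 to 0.19 in ZNF76 and 0.10 (SE 0.20) in ZNF143, a factor of many housekeeping promoters. Of 3 genes of imprinting and pluripotency ZFP42 alone fell, while ZFP57 and ZNF445, whose proteins guard imprinted methylation, differed by 0.01 (SE 0.11) and 0.27 (SE 0.10) without passing. Of 10 genes acting on RNA, ribosomes or the spindle, 1 rose (ZNF277, whose protein binds the ribosomal protein RPS2) and 0 fell, and 0 rose with the shift of the brighter neighbours taken off. The ribosome quality-control ligase gene ZNF598 differed by 0.37 (SE 0.11, adjusted p = 0.0550).

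**Figure D3:**
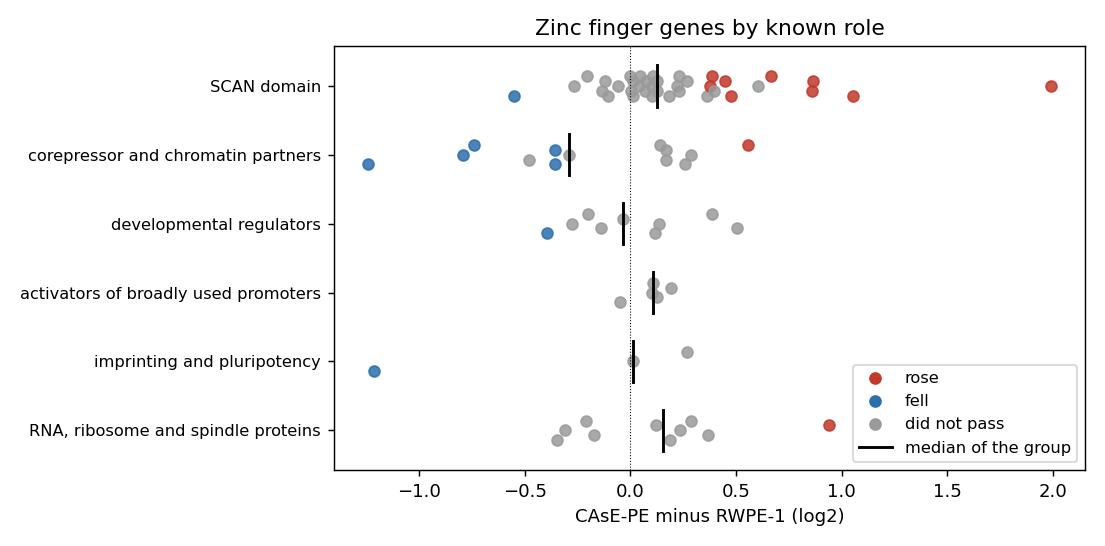
Differences (CAsE-PE minus RWPE-1, log2) of the genes in 6 role groups, 1 point per gene coloured by its call, with a bar at each group's median. SCAN genes reach 1.99 in ZNF483 with 1 fall at −0.55, whereas the corepressor and chromatin partners reach −1.24 in ZNF618 with 1 rise at 0.55.

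The cofactors through which KRAB proteins act were described beside them. Of 25 genes 4 rose, 2 fell and 19 did not pass, where 17.7% of all genes passed, and the median difference was −0.02. TRIM28, the corepressor bound by the KRAB domain, was bright and differed by −0.14 (SE 0.10, adjusted p = 0.388), with means of 10.30 ± 0.11 in CAsE-PE and 10.44 ± 0.07 in RWPE-1 (SD, n = 3 each). SETDB1, the H3K9 methyltransferase that TRIM28 recruits, rose by 0.42 (SE 0.11, adjusted p = 0.0309), with means of 8.06 ± 0.16 in CAsE-PE and 7.63 ± 0.07 in RWPE-1 (SD, n = 3 each). MORC2, a partner of the HUSH silencing complex, rose by 0.48 (SE 0.13), the H3K9 methyltransferase gene EHMT1 by 0.38 (SE 0.10) and the heterochromatin protein gene CBX1 by 0.35 (SE 0.10). These 4 calls were kept in at most 2 of the 6 fits without 1 array, with the highest adjusted p for SETDB1 without passage 18 (0.0825), for EHMT1 without passage 38 (0.0880) and without 35 weeks for MORC2 (0.121) and CBX1 (0.147). Both falls passed in each of the 6 fits without 1 array: SUV39H2, another H3K9 methyltransferase gene, fell by 0.69 on the log2 scale (SE 0.13, adjusted p = 0.00535), and ATF7IP2, a relative of a SETDB1 partner, by 0.68 (SE 0.14, adjusted p = 0.0105). With the shift of all neighbours taken off, SETDB1 and ATF7IP2 alone still passed, and SUV39H2 differed by −0.18 (adjusted p = 0.350). With that of the brighter neighbours SUV39H2 differed by −0.20 (adjusted p = 0.265) and MORC2 by −0.02 (adjusted p = 0.930), CBX1 and EHMT1 did not pass, and RESF1, a retroelement silencing gene of the same list, passed with 0.69 (adjusted p = 0.0412).

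The counts by chromosome are read against the 9.04% of all genes that rose and the 8.71% that fell. On chromosome 9, 7 of 11 members rose (63.6%) and 1 fell, with a median of 0.56, where the 721 other genes of that chromosome had a median of 0.09. The shift of the brighter neighbours of these rising genes ran from 0.20 for ZNF189 to 0.29 for ZNF483. With it taken off, ZNF189 (adjusted p = 0.144) and ZNF510 (adjusted p = 0.0834) no longer passed. The other rises there did, with ZNF79 at adjusted p = 0.0496. On chromosome 7, 7 of 32 rose (21.9%) and 1 fell, with a median of 0.06, against −0.03 for the 801 other genes. With the shift of the brighter neighbours taken off, only ZNF398, ZNF767P and ZNF212 of these rises still passed. On chromosome 20, 0 of 11 rose and 4 fell (36.4%), with a median of −0.26, against −0.10 for the 524 other genes. Of the 6 fits without 1 array, 6 kept the fall of ZNF337, 5 that of ZNF133, 3 that of ZNF334 and 0 that of ZNF663P. With all or brighter neighbours taken off, ZNF133 no longer passed (adjusted p = 0.679 and 0.791), and the other falls did. Some chromosomes with fewer members also had high shares. On chromosome 4, 3 of 8 fell (37.5%) and 1 rose. On chromosome 15, 4 of 9 rose (44.4%) and 1 fell, and on chromosome 18, 3 of 11 rose (27.3%) and 1 fell. Of the rises on chromosomes 15 and 18, only ZNF770, ZSCAN29 and ZNF24 still passed with the shift of the brighter neighbours taken off. On chromosome 16, which held the most members, 4 of 35 rose (11.4%), a share near that of all genes, and 1 fell. These shares rest on few genes, and no difference between chromosomes was tested.

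Neighbouring zinc finger genes were then compared with one another. Members with at most 10 other measured genes between them were joined into stretches, which gave 16 stretches of 4 or more members with 116 genes in all. In these stretches 25 members rose (21.6%) and 8 fell (6.90%), against 15 rises (9.93%) and 21 falls (13.9%) among the 151 genes outside them, where 9.04% of all genes rose and 8.71% fell. The share of rises outside the stretches was near that of all genes, and the difference was not tested. These counts have no neighbours' shift taken off. With that of the brighter neighbours taken off, 21 of the 40 rises and 20 of the 29 falls among all members kept their call. In that fit 1379 of all genes rose and 1865 fell, and members inside and outside the stretches were not counted apart. In 5 stretches rises and falls stood side by side. Each stretch is set beside the median difference of its brighter non-zinc-finger genes, those outside the dimmest 33.3% that lay within it or up to 12 places beyond it.

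On chromosome 4, ZNF732 fell while the pseudogene ZNF876P rose, at 7.23, 6.86 and 7.30 in CAsE-PE, against 6.60, 6.41 and 6.54 in RWPE-1 (difference 0.61, SE 0.13, adjusted p = 0.0123). Without the passage 38 array the adjusted p of ZNF876P was 0.0603. The 12 brighter other genes there had a median of −0.09. On chromosome 5, ZNF454 fell while ZNF354B rose by 0.41 (SE 0.11, adjusted p = 0.0308), a call kept in 2 of the 6 fits without 1 array (adjusted p up to 0.112, on leaving out 35 weeks), and the median of 21 other genes was 0.10. ZNF354B missed the threshold with all or brighter neighbours taken off (adjusted p = 0.0519 and 0.0615). On chromosome 3, ZNF662, ZNF502 and ZKSCAN7 fell while ZNF852 rose, at 7.50, 7.25 and 7.47 in CAsE-PE, against 6.76, 6.94 and 6.70 in RWPE-1 (difference 0.61, SE 0.11, adjusted p = 0.00639), and the median of 27 other genes was −0.08. On chromosome 16, ZNF75A fell by 0.48 on the log2 scale (SE 0.11) while ZNF597 rose by 0.50 (SE 0.14), with a median of 0.05 for 23 other genes. ZNF75A was called in 3 of the 6 fits without 1 array (highest adjusted p = 0.0663, without the 33.5-week array) and ZNF597 in 1 (0.0904, without the 35-week array), and ZNF597 did not pass with all or brighter neighbours taken off (adjusted p = 0.0759 and 0.0752). In these 4 stretches the other genes lay close to 0.

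On chromosome 10, 3 zinc finger genes rose among surroundings in which more genes fell than rose. Of 24 brighter other genes 9 fell and 1 rose, with a median of −0.23. Of the 10 zinc finger genes there, with a median of 0.10, ZNF33B, ZNF248 and ZNF33A rose, ZNF25 fell and the others did not pass. ZNF248 was at 6.72, 6.71 and 7.14 in CAsE-PE, against 6.07, 6.01 and 6.15 in RWPE-1. ZNF33A was at 8.003, 7.89 and 8.10 in CAsE-PE, against 7.64, 7.66 and 7.65 in RWPE-1 (difference 0.35, SE 0.10, adjusted p = 0.0381), and 1 of the 6 fits without 1 array kept its call (adjusted p up to 0.141, on leaving out 35 weeks). The shift of the nearest brighter neighbours was −0.28 for ZNF33B and −0.36 for ZNF248 and ZNF33A. With it taken off, the differences were larger, at 1.26 in ZNF33B, 1.14 in ZNF248 and 0.72 in ZNF33A (adjusted p = 0.000460, 0.000718 and 0.00239). ZNF25, between ZNF248 and ZNF33A, fell by 0.48 on the log2 scale (SE 0.14, adjusted p = 0.0391), and differed by −0.12 (adjusted p = 0.620) with that shift taken off, and its adjusted p was 0.119 without the passage 38 array. ZNF33A and ZNF33B are close relatives, so their features may share signal and each value is uncertain, as holds for other near copies in the family.

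On chromosomes 7, 9, 12 and 18 zinc finger genes rose in stretches without a falling member. In the third stretch of chromosome 7, 5 of 11 rose, from 0.47 in ZNF777 to 0.97 in ZNF398, and the 14 brighter other genes had a median of 0.11. With the shift of the nearest brighter neighbours (0.23 for each) taken off 3 of the 5 passed, and ZNF777 (adjusted p = 0.173) and ZNF282 (adjusted p = 0.148) did not. ZNF862 of the same stretch differed by −0.15 (SE 0.11) and did not pass. On chromosome 9, 3 of 4 rose, with 0.73 (SE 0.15) in ZNF782, where 28 other genes had a median of 0.26, and ZNF510 no longer passed with all or brighter neighbours taken off (adjusted p = 0.0872 and 0.0834). On chromosome 12, 2 of 6 rose, with 0.56 (SE 0.10) in ZNF268, where the median of 11 other genes was 0.20. With the shift of its nearest brighter neighbours (0.27) taken off, ZNF268 differed by 0.29 (adjusted p = 0.0839). The other rise there, ZNF140 (0.47, SE 0.13), did not pass with all or brighter neighbours taken off (adjusted p = 0.316 and 0.394). Its call was kept in 1 of the 6 fits without 1 array. On chromosome 18, 3 of 5 rose, ZNF24, ZNF397 and ZNF396, and of 17 other genes 10 rose, with a median of 0.64. The shift of the nearest brighter neighbours was 0.47 for each of the 3. With this 0.47 taken off, ZNF397 differed by 0.20 (adjusted p = 0.363) and ZNF396 by −0.08 (adjusted p = 0.737), and ZNF24 alone of the 3 still passed. Leaving out the 35-week array also gave adjusted p = 0.0619 for ZNF397 and 0.149 for ZNF396. What part a shift shared with neighbours has in these rises was not tested.

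**Figure D4:**
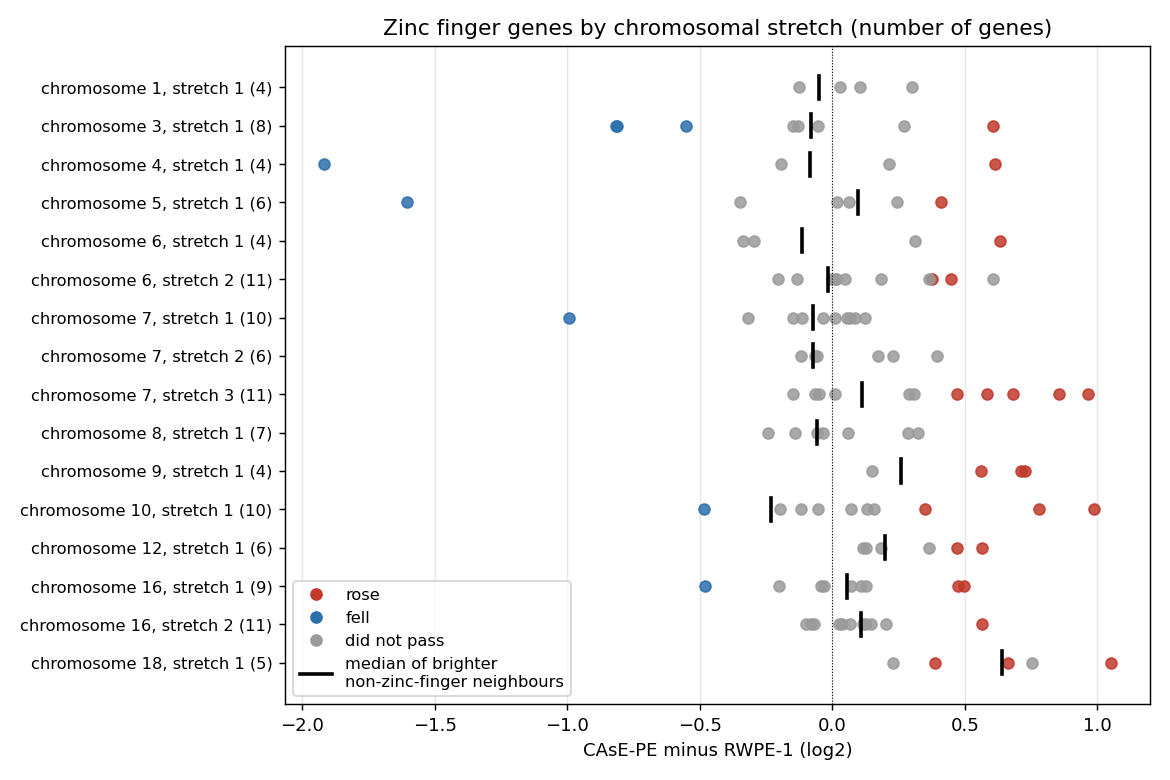
Differences (CAsE-PE minus RWPE-1, log2) of the 116 genes in 16 chromosomal stretches, 1 point per gene coloured by its call, with a black bar at the median of the brighter non-zinc-finger genes in and around each stretch. On chromosome 10 the bar stands at −0.23 with 3 rises up to 0.99, whereas on chromosome 18 it stands at 0.64 among the points.

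The remaining stretches with many members are read against the 9.04% of all genes that rose and the 8.71% that fell. Of the 11 genes of the SCAN-rich stretch on chromosome 6, 2 rose (ZSCAN16 and ZKSCAN8) and 0 fell. Differences there ran from −0.20 (SE 0.15) in ZNF311 to 0.61 in ZNF165, which did not pass. ZSCAN16 and ZKSCAN8 passed with all neighbours taken off (adjusted p = 0.0135 and 0.0333) and not with the brighter ones (adjusted p = 0.0586 and 0.111). Of 10 genes in the first stretch of chromosome 7, ZNF117 alone passed, and the highest difference was 0.12 (SE 0.14) in ZNF107. In the second stretch of chromosome 16, 1 of 11 rose, ZNF646 by 0.57 (SE 0.11). Both ZNF117 and ZNF646 still passed with the shift of the brighter neighbours taken off (adjusted p = 0.00588 and 0.0204). Of 7 genes on chromosome 8, 0 rose and 0 fell.

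The spread of the members within each line was close to that of all genes. The median SD of a member over 3 arrays was 0.14 in CAsE-PE and 0.12 in RWPE-1, where all genes had 0.13 in each. In a limma model with passage and weeks as slopes, 1 member had a trend over weeks in CAsE-PE, where 0.25% of all genes did. ZNF280B, on chromosome 22, was at 6.50, 7.47 and 7.83 at 30, 33.5 and 35 weeks, a slope of 0.27 per week (adjusted p = 0.0211). In RWPE-1 it was at 6.99, 6.96 and 6.88, so the 30-week array lay below and the 2 later arrays above all RWPE-1 arrays. No member had a trend over passage in RWPE-1 (0 in this limma model and 0 with its trended, robust variance), where 0.0217% of all genes had one, and 13 members had an unadjusted p under 0.05, 4.87% of them, against 5.82% of all genes. Over weeks 40 members had an unadjusted p under 0.05, 15.0% of them, against 11.3% of all genes, of which 21 had a positive and 19 a negative slope. The models leave 2 residual degrees of freedom, so trends had to be steep to pass, and a gene without a called trend is not shown to be level. ZNF165, for example, was at 8.22 at 30 weeks and 7.16 at 35 weeks, and its slope over weeks in this limma model did not pass (adjusted p = 0.0606).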

How the data were processed

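Per the labels, Trizol and a Qiagen kit gave the total RNA, which an Ambion kit turned into biotin-labelled target. The authors deposited 1 linear intensity per feature and array for 33252 features. How background was corrected and values summarised and normalised is not given in the sources used here. Genes were named through GEO's platform annotation, in which 19460 features had 1 symbol, 1754 had several (not used, 42 of them with a symbol of this family) and 12038 were unnamed. Of the single-symbol features, 19429 matched RefSeq (GRCh38.p14), which gave chromosome and gene order. Of the members, 10 had several features.

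Values were compared as log2(intensity + 1) with limma 3.58.1 in R 4.3.3 (lmFit, eBayes, 4 residual degrees of freedom), after the step was tested on simulated data, where 85% of genes changed by 1 on the log2 scale and 97% changed by 2 were called over 18417 genes. Groups came from the phenotype label. Precision is limited by the number of arrays, 3 in each group.

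Named genes were ZNF483 and ZNF24, the 12 largest rises and falls with groups apart, the extremes of each role group and stretch, trends, and called KRAB cofactors. Further members, some outside those lists, were named after their values were seen. The members and all lists were chosen with earlier results of these data known. Summaries and figures used Python 3.11.15, numpy 2.4.6, pandas 2.3.3 and matplotlib 3.10.9. C2H2 motif counts per protein were foreseen and not run.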

Additional observations from a re-analysis of the deposited data

How the results depend on the processing

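The counts of 40 rises and 29 falls were recomputed under 15 alternatives, of which 1 (brighter neighbours taken off) was chosen after seeing the data. Rises numbered 63 with array weights and 24 with the brighter neighbours' shift taken off, and falls numbered 19 with the shift of all neighbours taken off. Leaving out 1 array at a time gave 26 to 44 rises and 15 to 25 falls, lowest for both without the passage 38 array. Under the other alternatives (quantile normalisation, centred medians, a pseudocount of 16, the dim filter, the mean of features, another variance model) both counts stayed within 1.5 times. With the shift of all neighbours taken off, 31 of the 40 rises and 18 of the 29 falls kept their call, and 21 and 20 with that of the brighter neighbours. With a trended, robust variance, 2 members in place of 1 had a trend over weeks and again 0 over passage. Of 787 values of 53 named genes under these alternatives, 734 kept their direction and side of the threshold, 40 lost the threshold, 3 gained it and 10 changed sign. The sign changes were in 5 genes that did not pass. ZNF107 (0.12) differed by −0.0082 with array weights and by −0.0082 to 0.25 without 1 array, lowest without 30 weeks. ZNF605 (0.12) differed by −0.12 with all and −0.16 with brighter neighbours taken off, and by −0.0098 to 0.1834 without 1 array, lowest without passage 38. With all and with brighter neighbours taken off, ZSCAN25 (−0.12) differed by 0.0162 and 0.0106, and ZNF169 (0.15) by −0.10 and −0.12. ZSCAN30 (0.23) differed by −0.24 with brighter neighbours taken off. For array weights and leave-one-out fits the cause was not tested. No paired analysis was possible because replicate numbers were given in accession order and do not pair passages with exposure times. Values near the low end of the arrays have no detection call.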
